A study of Homo sapiens with 44 samples.

Results

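FAM189A2, DPP4, LUZP2, TESC, PIGR and RHOJ are 6 of the 23368 genes in a count table of prostate cancer xenografts, and they are among the genes whose transcripts were most reduced by both antiandrogens. They were chosen by their low counts in drug-treated against vehicle-treated tumors, so the drug effects on them are a description and carry no test. The tumors were grown from VCaP, an established line of human prostate cancer cells with a TMPRSS2-ERG fusion, in athymic nude mice (host strain HSD:Athymic Nude–Foxn1nu). All mice were castrated, and treatment started once serum PSA was back at its level from before castration. The arms were vehicle (n = 15), enzalutamide at 20 mg/kg/day (n = 14) and ARN-509, also called apalutamide, at 20 mg/kg/day (n = 15), each given by gavage once a day for 4 weeks. The arm sizes match the mice treated, and a library is counted here as the tumor of a single mouse, which the labels do not state library by library; p-values measure the spread between these samples. The tumors all come from 1 cell line in hosts that lack T cells, and no group without castration was part of the comparison.

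Androgen switches on a set of genes in prostate epithelium, among them secreted proteases, membrane transporters and steroid receptor chaperones. Enzalutamide and ARN-509 are antiandrogens, which keep androgen from switching on these target genes. Castration-resistant tumors have regained this activity at low androgen. Of the 6 genes, 3 encode membrane proteins that meet the outside of the cell or its endosomes. DPP4 is a surface peptidase that trims chemokines and incretins. PIGR is the receptor that carries polymeric IgA and IgM across epithelia. FAM189A2, now named ENTREP1, is a membrane protein described as an activator of the ubiquitin ligase ITCH in endosomal sorting of CXCR4. The other three act inside cells or are little studied: RHOJ is a small GTPase of the CDC42 group best known from endothelial cells, TESC is an EF-hand calcium-binding protein that binds the sodium-proton exchanger NHE1, and LUZP2 is a leucine zipper protein.

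The libraries held 4187464 to 25849380 counts in the vehicle arm, 4723513 to 16903189 in 13 enzalutamide tumors and 3377450 to 30125004 in the ARN-509 arm. Enzalutamide 4 held 80142 counts and was not used. Levels are given in CPM, counts per 1000000 of a library's scaled total, and fold changes come from 1 edgeR fit over 43 libraries of the 13520 genes whose counts were high enough in at least the smallest arm. Among the libraries used, the log2 values of vehicle 8 and vehicle 10 had the lowest correlations with their arm (0.891 and 0.917 across genes). VCaP identity was checked on 13 luminal markers, all of which passed the filter on low counts. Markers of other cells were read from human genes, and host cells are mouse cells that such counts need not show. Summed levels were 16.8 to 47.6 CPM over 12 endothelial genes, 19.8 to 54.6 CPM over 12 fibroblast genes, 4.26 to 12.03 CPM over 12 leukocyte genes, 0.14 to 2.03 CPM over 5 erythroid genes and 4.20 to 17.5 CPM over 6 basal epithelial genes. CD3D and CD3E, which define T cells, were at 0 in every library used, from hosts that lack T cells.

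Promoter sequence is shown for both genes whose window holds a half-site of the androgen response element, and for DPP4 and LUZP2, which had the largest losses beside FAM189A2. RefSeq annotation of GRCh38.p14 gave a start site for 5 of the 6 genes, and the 250 bases upstream of each were searched on both strands. Positions are given on that build: chr9:69324317-69324566 on the plus strand for FAM189A2, chr1:206946467-206946716 on the minus strand for PIGR, chr2:162074216-162074465 on the minus strand for DPP4 and chr11:24496803-24497052 on the plus strand for LUZP2. Capitals mark the half-site AGAACA or its reverse complement TGTTCT.
FAM189A2: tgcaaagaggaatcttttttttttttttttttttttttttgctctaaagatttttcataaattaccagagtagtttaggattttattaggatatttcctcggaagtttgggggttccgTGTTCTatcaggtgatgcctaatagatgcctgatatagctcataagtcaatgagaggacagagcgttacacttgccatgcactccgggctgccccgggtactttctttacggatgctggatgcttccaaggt
PIGR: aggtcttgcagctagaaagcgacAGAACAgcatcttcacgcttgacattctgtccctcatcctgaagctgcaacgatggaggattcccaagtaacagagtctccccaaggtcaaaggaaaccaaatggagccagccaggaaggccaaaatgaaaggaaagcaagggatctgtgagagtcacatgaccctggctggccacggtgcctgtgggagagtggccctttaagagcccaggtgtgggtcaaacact
DPP4: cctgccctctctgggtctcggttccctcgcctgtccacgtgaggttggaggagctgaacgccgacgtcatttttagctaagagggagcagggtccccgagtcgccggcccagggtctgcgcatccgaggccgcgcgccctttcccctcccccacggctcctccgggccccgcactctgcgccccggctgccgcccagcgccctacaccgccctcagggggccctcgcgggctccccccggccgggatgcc
LUZP2: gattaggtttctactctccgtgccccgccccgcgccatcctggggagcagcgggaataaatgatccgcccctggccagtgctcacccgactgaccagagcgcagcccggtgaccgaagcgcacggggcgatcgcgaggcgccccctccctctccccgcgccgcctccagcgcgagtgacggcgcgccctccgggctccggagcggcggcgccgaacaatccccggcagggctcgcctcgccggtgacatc

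The half-site stood once in the FAM189A2 window, at base -132 from the start site shown, and once in the PIGR window, at base -227. FAM189A2 has 4 annotated start sites; the window of the second overlaps the first and holds the same half-site, and the other two hold none. DPP4, LUZP2 and RHOJ had no match. The half-site occurs in 12.4% of the 35116 promoter windows of this length, so a match in 2 of 5 genes is a description only. The forkhead motif TGTTTAC (2.98% of windows) and the ETS motif CCGGAAG (8.52%) were in none of the 5 genes' windows. The DPP4 and LUZP2 windows were rich in G and C (73.6% and 72.8%, against a median of 58% over all windows), while those of PIGR and RHOJ held 52.8% and 52% and the FAM189A2 window shown 39.6%. The windows of the other FAM189A2 start sites held 40%, 75.2% and 34.8%.

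**Figure D1:**
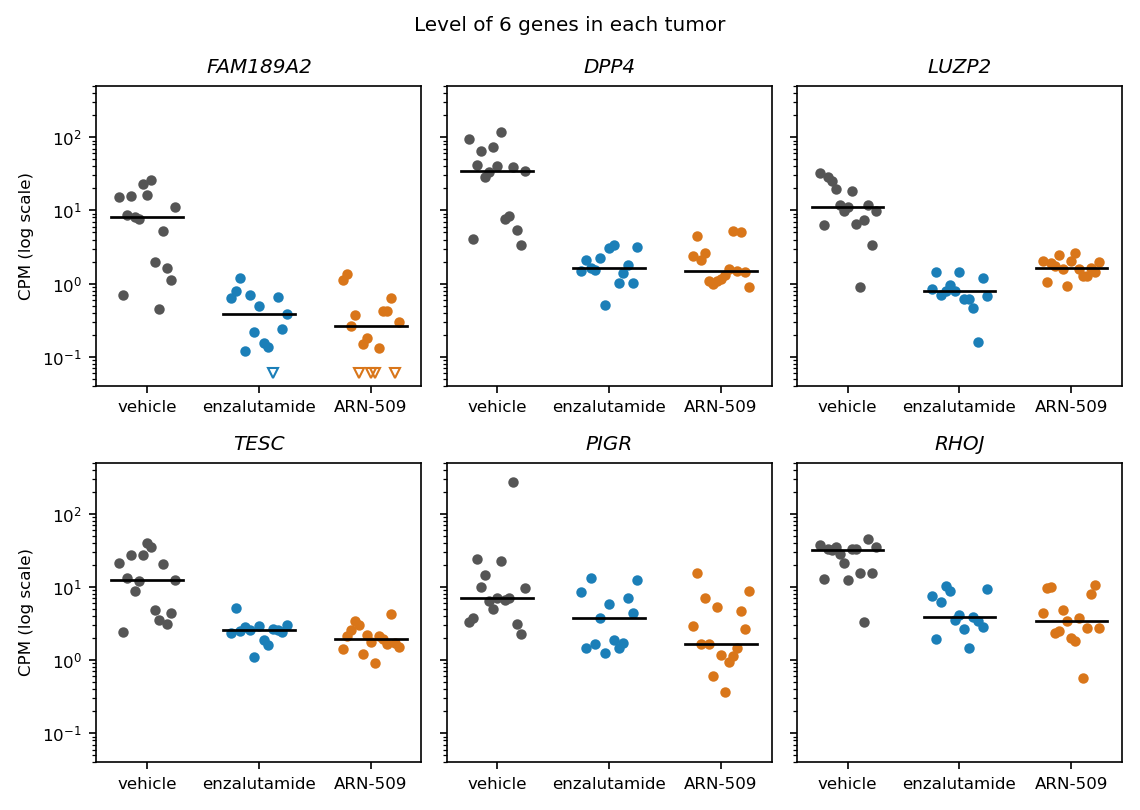
Level of each of the 6 genes in every tumor, in CPM on a log axis, with 15 vehicle, 13 enzalutamide and 15 ARN-509 tumors; each circle is 1 tumor, lines are medians and open triangles mark tumors with 0 counts. All drug-treated tumors lie below the vehicle median for every gene except PIGR, and vehicle 12 stands alone at 271 CPM of PIGR.

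DPP4 had the largest loss among the members that passed the filter on low counts. Its level in vehicle tumors ran from 3.38 to 117 CPM (median 34.9), in enzalutamide tumors from 0.51 to 3.42 CPM (median 1.65) and in ARN-509 tumors from 0.91 to 5.202 CPM (median 1.47). The arms met only at the edge: 12 of 13 enzalutamide tumors and 12 of 15 ARN-509 tumors lay below the lowest vehicle tumor, and vehicle 14, 2 and 13 (3.38, 4.04 and 5.38 CPM) were closest to the treated range. The log2 fold change was -4.42 ± 0.46 (SE) under enzalutamide and -4.09 ± 0.42 under ARN-509, or 21.5-fold and 17.0-fold lower. For no member were the vehicle and treated tumors fully apart. As background to such counts, 5.67% of the 13520 tested genes were lower and 5.1% higher under enzalutamide, and 16.1% and 14.7% under ARN-509, at a Benjamini-Hochberg adjusted p of 0.05.

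PIGR was the least uniform of the 6 genes. Vehicle tumors held 2.25 to 271 CPM (median 6.95), enzalutamide tumors 1.24 to 13.1 CPM (median 3.78) and ARN-509 tumors 0.37 to 15.6 CPM (median 1.67). The arms overlapped widely, since 10 of 13 enzalutamide and 12 of 15 ARN-509 tumors lay below the vehicle median. The value of 271 CPM belonged to vehicle 12, and the next highest vehicle tumor held 24.3 CPM. The log2 fold changes of -2.41 ± 0.64 and -2.66 ± 0.62 (5.33-fold and 6.32-fold lower) fell to -0.85 ± 0.44 and -1.12 ± 0.43 without vehicle 12, or 1.801-fold and 2.17-fold lower. The place of PIGR among the most reduced genes therefore rests on that tumor. Vehicle 12 was also the lowest vehicle tumor for RHOJ (3.30 CPM) and for FKBP5, a co-chaperone of steroid receptors (173 CPM).

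FAM189A2 was nearly silent in treated tumors. Vehicle tumors held 0.44 to 26.4 CPM (median 8.25), enzalutamide tumors 0 to 1.18 CPM (median 0.39) and ARN-509 tumors 0 to 1.34 CPM (median 0.26). Of the vehicle tumors, 12 of 15 exceeded every treated tumor of either arm, and vehicle 11, 2 and 14 (0.44, 0.69 and 1.13 CPM) lay within the treated range. Treated tumors held at most 35 counts of the gene, and 1 enzalutamide and 4 ARN-509 tumors held 0 counts, where 3 counts would be the smallest level told from 0. FAM189A2 did not pass the filter on low counts. A fit of all 20569 genes with a count, without that filter, gave log2 fold changes of -4.51 ± 0.54 and -4.30 ± 0.50, or 22.9-fold and 19.7-fold lower.

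RHOJ had a narrower range between vehicle tumors than the other members. Vehicle tumors held 3.30 to 44.7 CPM (median 31.9), enzalutamide tumors 1.48 to 10.4 CPM (median 3.86) and ARN-509 tumors 0.56 to 10.7 CPM (median 3.47). Apart from vehicle 12, every vehicle tumor exceeded all treated tumors. The log2 fold change was -2.35 ± 0.32 under enzalutamide and -2.40 ± 0.31 under ARN-509. Among endothelial markers, CDH5 and KDR had a median of 0 counts in each arm and at most 3 counts in a library, and of 12 markers 2 passed the filter, neither of which was lower under a drug (EGFL7 rose by 0.43 under enzalutamide). VWF, the von Willebrand factor gene and an untested marker of that list, was lower in treated tumors like RHOJ, with medians of 3.15 CPM (19 counts) in vehicle, 0.35 CPM (3 counts) in enzalutamide and 0.18 CPM (1 count) in ARN-509 tumors. The summed endothelial list had medians of 23.3, 29.2 and 24.1 CPM in the same order. EGFL7 alone had medians of 16.8, 26.1 and 20.2 CPM, so the sum mostly shows that gene. PECAM1 had medians of 0.97, 0.49 and 0.61 CPM, and ESAM 1.27, 1.26 and 1.45 CPM. How reads of host cells were handled is not given in the sources used here, and their part in the RHOJ counts was not tested.

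TESC had its lowest median under ARN-509 and LUZP2 under enzalutamide. TESC ran from 2.38 to 40.0 CPM in vehicle tumors (median 12.6), from 1.09 to 5.12 CPM in enzalutamide tumors (median 2.59) and from 0.92 to 4.30 CPM in ARN-509 tumors (median 1.97). The 5 lowest vehicle tumors (2.38 to 4.84 CPM) lay within the range of enzalutamide tumors, and the log2 fold changes were -2.61 ± 0.33 and -2.86 ± 0.32. LUZP2 ran from 0.89 to 32.3 CPM in vehicle tumors (median 11.2), from 0.16 to 1.44 CPM in enzalutamide tumors (median 0.79) and from 0.91 to 2.59 CPM in ARN-509 tumors (median 1.65). Vehicle 11 held the lowest LUZP2 level of its arm and lay within the enzalutamide range and below every ARN-509 tumor, while the other 14 vehicle tumors exceeded all treated tumors. The log2 fold changes of LUZP2 were -3.99 ± 0.32 and -3.02 ± 0.28. In bulk tumors, fewer cells that express a gene and less RNA per cell cannot be told apart, which holds for each of these values.

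Ranked by the weaker of their 2 log2 fold changes, the tested genes that averaged 1 or more in log2 CPM were led by DPP4 (-4.09), STEAP4 and ST6GALNAC1, with LUZP2 at place 4, TESC at 6, PIGR at 8 and RHOJ at 9 (-2.35). Just outside stood TRPM8, a cold-sensing cation channel (-2.03), and GHR, the growth hormone receptor (-1.98). Per kilobase of exon, the vehicle medians were highest for RHOJ (8.42 CPM per kb), DPP4 (6.98) and TESC (6.54), and lower for PIGR (1.59), LUZP2 (1.26) and FAM189A2 (0.86). Differences within the former trio and within the latter were smaller than the SD between vehicle tumors.

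**Figure D2:**
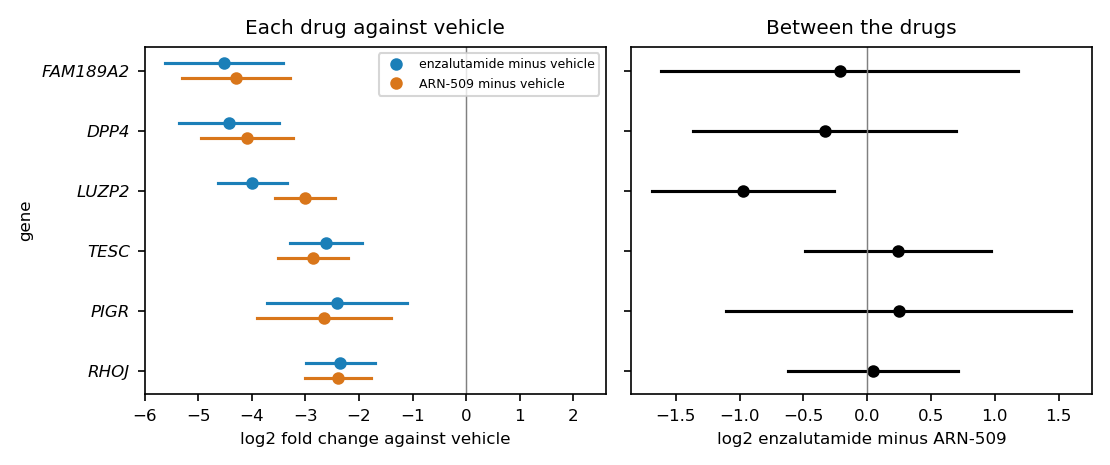
Log2 fold changes of the 6 genes with 95% intervals (horizontal lines) for each drug against vehicle (left, blue enzalutamide and orange ARN-509) and for enzalutamide minus ARN-509 (right). The interval between the drugs excludes 0 for LUZP2 (-1.69 to -0.26) and spans 0 for the other genes.

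The drugs were then compared with each other at the same dose and duration, the only pair of compounds in the study. ARN-509 carries a cyclobutane ring where enzalutamide has a pair of methyl groups, and a pyridine ring where enzalutamide has a benzene ring. LUZP2 was lower under enzalutamide (0.82 ± 0.36 CPM, SD, n = 13) than under ARN-509 (1.70 ± 0.48 CPM, n = 15). The log2 difference was -0.97 (95% interval -1.69 to -0.26, edgeR adjusted p = 0.0381 over all tested genes), and between the drugs 26.8% of all tested genes passed this threshold. The LUZP2 call was lost when genes of low count were kept in (adjusted p = 0.0590), with the trend of each library with GC content and transcript length removed (-0.72, adjusted p = 0.190), and in 7 of 43 fits that left out 1 library. Those were enzalutamide 5, 7, 9, 11 and 12 and ARN-509 1 and 9, with adjusted p from 0.0537 to 0.0588. The slope of log2 CPM on GC content also moved with the arms, with a median of 0.05 log2 per 10% GC in enzalutamide libraries and -0.10 in ARN-509 libraries.

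For the remaining members the drugs did not differ past the threshold, and the intervals bound the difference. The log2 difference was -0.33 for DPP4 (95% interval -1.36 to 0.69, adjusted p = 0.651), 0.24 for TESC (-0.48 to 0.97, adjusted p = 0.642), 0.25 for PIGR (-1.11 to 1.60, adjusted p = 0.813) and 0.04 for RHOJ (-0.62 to 0.71, adjusted p = 0.937). For FAM189A2 in the unfiltered fit it was -0.22 (-1.61 to 1.18, adjusted p = 0.888).

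The spread between vehicle tumors of 1 cell line was large for all members. The SD of log2 CPM over 15 vehicle tumors was 1.76 for FAM189A2, 1.68 for DPP4, 1.66 for PIGR, 1.32 for TESC, 1.26 for LUZP2 and 0.95 for RHOJ, against a median of 0.30 over the tested genes. RHOJ stood at the 98.6th percentile of tested genes and the other members above the 99th. In enzalutamide tumors the SD was 0.80 for FAM189A2, 0.67 for DPP4, 1.18 for PIGR, 0.47 for TESC, 0.57 for LUZP2 and 0.85 for RHOJ. In ARN-509 tumors it was 0.94, 0.78, 1.36, 0.52, 0.38 and 1.04 in the same order. The median over the tested genes was also lower than in vehicle tumors, at 0.24 in enzalutamide and 0.23 in ARN-509 tumors. How far the low counts of treated tumors shaped these SDs was not tested. Over 18 relations of a member with library size, adjusted within each arm, the lowest permutation p after adjustment was 0.137.

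**Figure D3:**
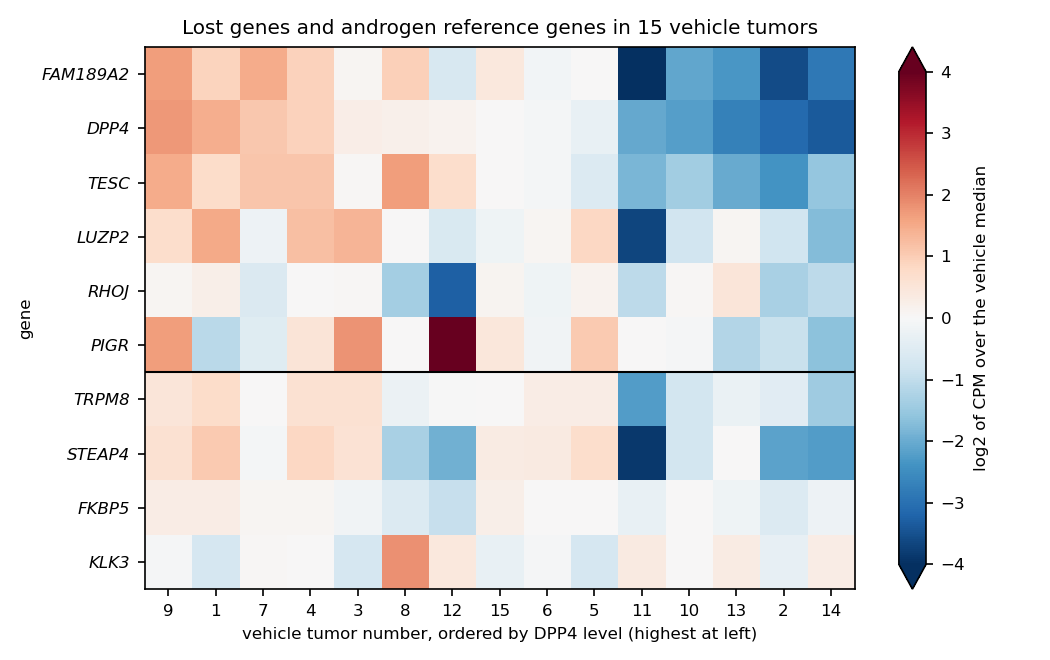
Log2 of each gene's CPM over its vehicle median (colour, scale ending at -4 and 4) in the 15 vehicle tumors, ordered from the highest DPP4 level at left to the lowest at right; the 6 lost genes stand above the line and 4 androgen reference genes below it. FAM189A2, DPP4 and TESC are low in the 5 tumors at the right (vehicle 11, 10, 13, 2 and 14), and vehicle 12 is high for PIGR and low for RHOJ.

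The low ends of several members fell in the same vehicle tumors. DPP4 levels split at a gap between 8.43 and 28.7 CPM, with vehicle 2, 10, 11, 13 and 14 below it and 10 tumors above. FAM189A2 split at a gap between 1.96 and 5.24 CPM with the same 5 tumors below. These 5 also had the lowest TESC of the arm (2.38 to 4.84 CPM, next 8.66) and the lowest TRPM8 (101 to 401 CPM, next 407). The 5 lowest LUZP2 tumors shared 4 with this set, and the 5 lowest RHOJ and PIGR tumors shared 3 each. This overlap was noticed after the values were seen.

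Because of the gap, relations with DPP4 and FAM189A2 in the vehicle arm were computed over the 10 upper tumors only. The 5 tumors left out were also those with the lowest TESC. A relation of DPP4 or FAM189A2 with another member that those 5 carry could therefore not be seen. Of 45 pairs of members within an arm, 0 passed after adjustment, by Pearson or Spearman permutation tests, while 8 pairs had an unadjusted Pearson p under 0.05. FAM189A2 and DPP4 had the highest Pearson r, 0.79 (permutation p = 0.0074, adjusted p = 0.166), with Spearman coefficient = 0.76 (p = 0.0149, adjusted p = 0.137) in 10 vehicle tumors. Without the 2 tumors farthest from the median r was 0.77. In 15 ARN-509 tumors the pair had r = 0.69 (permutation p = 0.00471, adjusted p = 0.166) and Spearman coefficient = 0.67 (p = 0.0078, adjusted p = 0.137), and r = 0.64 without the farthest 2. FAM189A2 had a median of 2 counts in that arm, with 4 tumors at 0. With library size FAM189A2 had r = 0.56 there (permutation p = 0.0312, adjusted p = 0.187) and DPP4 r = 0.40 (permutation p = 0.143, adjusted p = 0.239). The part of depth in the relation of the pair was not tested. FAM189A2 and TESC were closer by Spearman in the 10 vehicle tumors (coefficient 0.82, permutation p = 0.0062, adjusted p = 0.137). Their r was 0.70 (permutation p = 0.0288, adjusted p = 0.216), and 0.86 without the farthest 2. PIGR and RHOJ in vehicle tumors had r = -0.52 (permutation p = 0.0646, adjusted p = 0.278) and Spearman coefficient = -0.08 (p = 0.784, adjusted p = 0.867), and r turned to 0.28 without the farthest 2, so that relation rests on them.

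**Figure D4:**
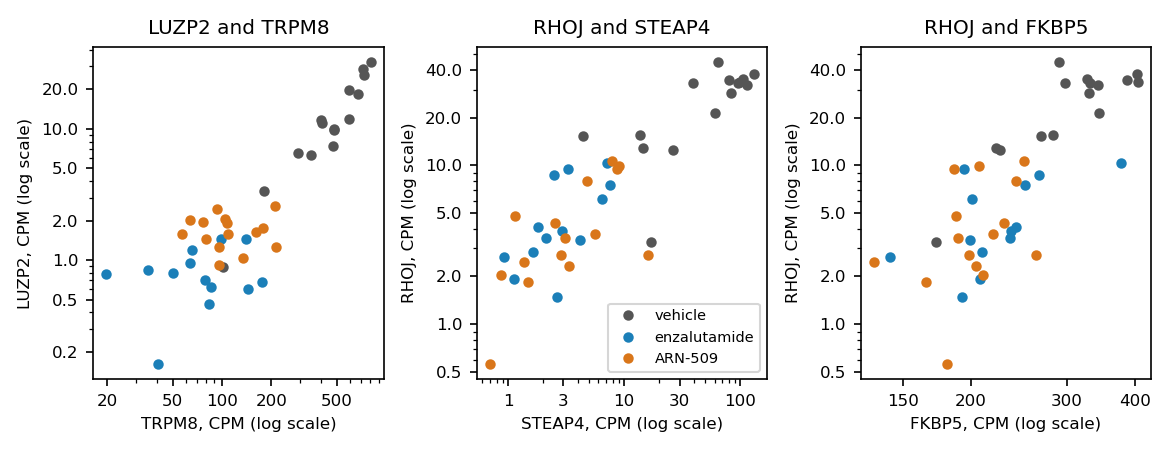
Pairs of a lost gene and a reference gene in each tumor, in CPM on log axes, with vehicle tumors in grey, enzalutamide in blue and ARN-509 in orange. In vehicle tumors LUZP2 rises with TRPM8 (r = 0.96), RHOJ with STEAP4 (r = 0.69) and RHOJ with FKBP5 (r = 0.87).

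Levels of the members were then set against androgen reference genes within the vehicle arm, without a test of whether members differed in these relations. Of 24 relations with STEAP4, TRPM8, KLK3 and FKBP5, 5 passed by Pearson and 4 by Spearman permutation tests, with adjustment over the 30 relations of the family. LUZP2 followed TRPM8 (r = 0.96, adjusted p = 1e-04; Spearman coefficient = 0.93, adjusted p = 2e-04; n = 15) and STEAP4, a metalloreductase (r = 0.92, adjusted p = 1e-04; Spearman coefficient = 0.94, adjusted p = 2e-04), with unadjusted permutation p for r of 1e-05, the smallest that the resamples can give. Without the 2 farthest tumors, r was 0.90 and 0.81. RHOJ followed FKBP5 (r = 0.87, permutation p = 9e-05, adjusted p = 0.000675; Spearman coefficient = 0.67, permutation p = 0.00772, adjusted p = 0.0331) and STEAP4 (r = 0.69, permutation p = 0.00521, adjusted p = 0.0195; Spearman coefficient = 0.73, permutation p = 0.00315, adjusted p = 0.0189), with r = 0.68 and 0.84 without the farthest 2.

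TESC and TRPM8 had r = 0.64 (permutation p = 0.00749, adjusted p = 0.0250) and Spearman coefficient = 0.63 (p = 0.0146, adjusted p = 0.0540), with r = 0.72 without the farthest 2. Over the 10 tumors outside the 5 with least DPP4, r turned to -0.17, so that relation rests on those 5. The call was also lost without vehicle 4, 9, 11 or 14 (r from 0.60 to 0.61, adjusted p from 0.0526 to 0.0684). Over the same 10 tumors r was 0.90 and 0.77 for LUZP2 with TRPM8 and STEAP4. For RHOJ it was 0.95 with STEAP4 (permutation p = 0.00014, adjusted p = 0.00126) and 0.92 with FKBP5. RHOJ and FKBP5 did not pass by Spearman (coefficient 0.62, adjusted permutation p = 0.0780). Only relations already past the threshold by Pearson in the vehicle arm were computed here. Adjustment was over these 9 alone, not all of which are reported. The 10 tumors belong to the arm that was used to choose the relations. These values are therefore a description and no independent test. PIGR over 15 tumors, and FAM189A2 and DPP4 over the 10 upper tumors only, passed with none of the 4 reference genes. The 5 tumors left out for FAM189A2 and DPP4 also had the lowest TRPM8. A relation carried by those 5 could therefore not be seen for FAM189A2 and DPP4. KLK3, the gene of PSA, passed with none of the members. In the labels no sequencing batch is given, so no value within batches could be computed.

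Likeness over the 15 vehicle tumors was also ranked across 12759 genes by Spearman coefficient, as a description. Nearest to LUZP2 were STEAP4 (0.94), TRPM8 (0.93) and MBOAT2 (0.92), nearest to TESC were ENDOD1 (0.96), C2orf72 (0.95) and HJURP (0.94), and nearest to DPP4 were GFOD2 (0.94), PTPRK and ST6GALNAC1 (0.91 each). GFOD2 also led for FAM189A2 (0.96), before CACNG4 (0.95) and FGFR3 (0.94). RHOJ was nearest to PDGFC, PRKCH (0.86 each) and LOX (0.85), and PIGR to PLAA (0.84), TAP1 and EHD4 (0.77 each). The tumors share cell line and vehicle treatment, and the coefficient over all 15 includes the 5 tumors with low DPP4. Of these 17 genes, 12 were lower under enzalutamide (against 5.67% of all tested genes) and 13 under ARN-509 (against 16.1%). None were higher under either drug (against 5.1% and 14.7%). LOX, a collagen cross-linking enzyme, had log2 fold changes of -1.55 ± 0.25 and -1.70 ± 0.24, and FGFR3, a growth factor receptor, -1.21 ± 0.21 and -1.10 ± 0.20. The choice of these genes used the vehicle tumors that enter both comparisons.

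Genes of the wider androgen programme were counted as context. Of 52 tested genes widely described as androgen-induced, with the members left out, 22 were lower and 4 higher under enzalutamide (42.3% lower against 5.67% of all genes), and 28 were lower and 7 higher under ARN-509 (53.8% against 16.1%). The median log2 fold change of the list was -0.29 and -0.26, against 0.00 for all tested genes. ST6GALNAC1, a sialyltransferase, had log2 fold changes of -3.37 ± 0.32 and -3.46 ± 0.30 (adjusted p = 2.55e-10 and 3.01e-11). SLC43A1, an amino acid transporter, had -0.82 ± 0.10 and -1.10 ± 0.10, and UAP1, an enzyme of UDP-N-acetylglucosamine synthesis, -0.70 ± 0.07 and -0.68 ± 0.07. Moving against the list's name, STEAP1, a metalloreductase relative of STEAP4, rose by 0.51 ± 0.13 and 0.48 ± 0.13.

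Relatives and partners of the members were counted in the same way. Of all tested genes, 5.67% were lower and 5.1% higher under enzalutamide, and 16.1% and 14.7% under ARN-509. Of 22 tested GTPases related to RHOJ and CDC42 effectors, 0 were lower and 5 higher (22.7%) under enzalutamide. Under ARN-509, 3 were lower (13.6%) and 5 higher (22.7%). RND3, a member of the family that lacks GTPase activity, rose from 0.78 ± 0.74 CPM (SD, n = 15) to 2.77 and 2.81 CPM on average (log2 1.78 ± 0.25 and 1.84 ± 0.24, adjusted p = 9.51e-07 and 1.51e-07), and RHOU rose by 0.64 ± 0.11 and 0.74 ± 0.11. Of 9 tested peptidases and partners of DPP4, 0 were lower and 2 higher (22.2%) under enzalutamide. Under ARN-509, 2 were lower and 2 higher (22.2% each way). Among them MME, the surface peptidase neprilysin, rose by 0.999 ± 0.33 (adjusted p = 0.0402) and 1.27 ± 0.32 (adjusted p = 0.00238), the former call being lost in 16 alternative settings. Of 13 tested genes of HECT ligases, epsins and the CXCR4 axis, listed for FAM189A2, NEDD4L rose by 0.40 ± 0.10 and 0.57 ± 0.10. No other of the 13 passed under enzalutamide (7.69% higher). Under ARN-509, 3 of the 13 were lower (23.1%), EPN1 (-0.35 ± 0.07), FAM189B (-0.27 ± 0.08) and EPN2 (-0.17 ± 0.06). The 2 that were higher under ARN-509 (15.4%) were NEDD4L and ITCH (0.25 ± 0.08, adjusted p = 0.0211). Of 17 tested genes of calcineurin and sodium-proton exchange, listed for TESC, 0 were lower and 2 higher (11.8%) under enzalutamide. Under ARN-509, 3 were lower (17.6%) and 5 higher (29.4%). RCAN2, a calcineurin inhibitor, rose by 0.79 ± 0.17 and 0.92 ± 0.17.

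Partners of PIGR were listed as well. Of 16 tested genes of mucosal immunity and transcytosis, 4 were lower (25% against 5.67%) and 2 higher (12.5% against 5.1%) under enzalutamide. Under ARN-509, 4 were lower (25% against 16.1%) and 1 higher (6.25% against 14.7%). SLPI, a secreted protease inhibitor of mucosal surfaces, fell from 3.85 ± 1.38 CPM to 1.63 and 0.96 CPM on average (log2 -1.22 ± 0.21 and -1.95 ± 0.21, adjusted p = 3.61e-05 and 3.03e-09). CEACAM1, a cell adhesion molecule, had log2 fold changes of -1.21 ± 0.26 and -1.05 ± 0.24. Of 13 tested receptors and factors described as inducing PIGR, NFKB1 was lower (-0.46 ± 0.08 and -0.39 ± 0.08) and IFNGR1, the interferon gamma receptor, rose by 0.32 ± 0.06 and 0.28 ± 0.06. LUZP1, the 1 tested gene that shares a name stem with LUZP2, passed under neither drug (-0.24 ± 0.10, adjusted p = 0.0935, and -0.09 ± 0.09, adjusted p = 0.460).

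**Figure D5:**
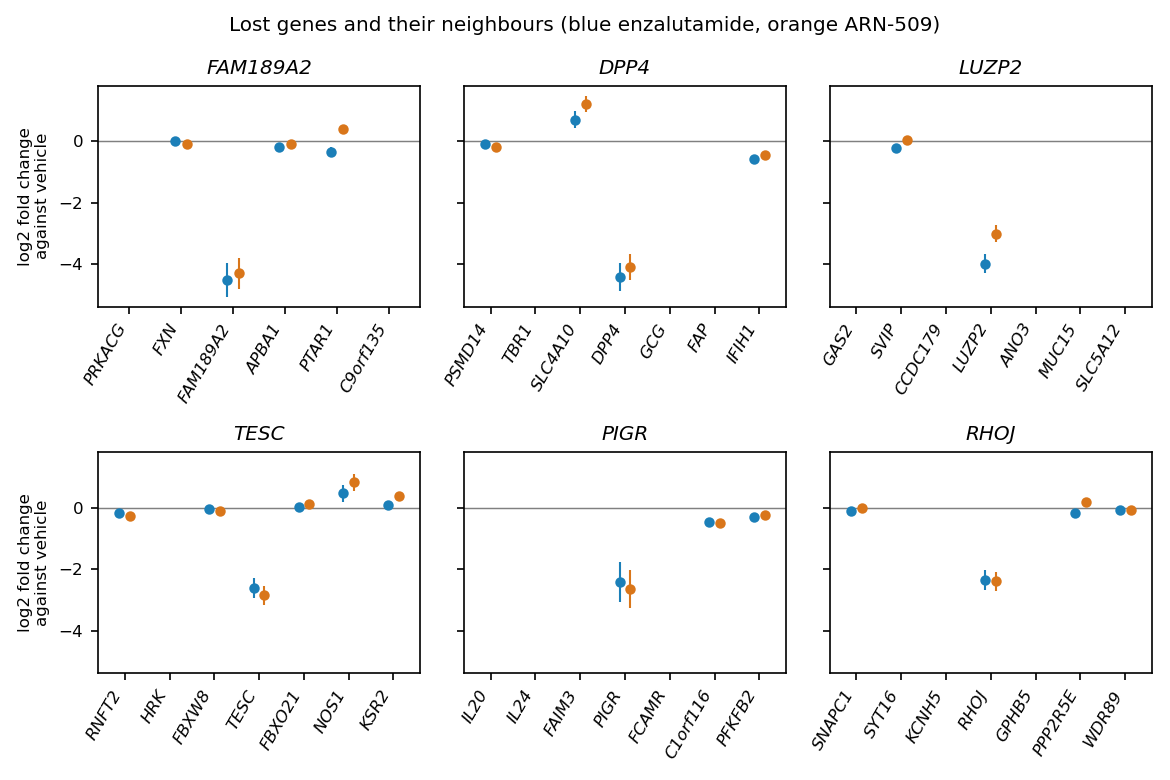
Log2 fold change against vehicle (points, with SE bars) of each lost gene and of up to 3 protein-coding genes on either side of it, in genome order, for enzalutamide (blue) and ARN-509 (orange); genes without a point were not tested. The lost genes were chosen for their losses, so their place below the tested neighbours follows from that choice. The PIGR points include vehicle 12, and without that tumor they go to -0.85 and -1.12. Of the tested neighbours shown, IFIH1 (-0.58 and -0.46) and C1orf116 (-0.48 and -0.49) were lower under both drugs.

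Genes next to the members on the chromosome were counted beside all tested genes. Of 36 protein-coding genes that flank the members, 3 on each side, 18 were tested. Under enzalutamide 3 were lower (16.7%, against 5.67% of all tested genes) and 0 higher (against 5.1%). Under ARN-509 3 were lower (16.7% against 16.1%) and 4 higher (22.2% against 14.7%). IFIH1, a sensor of viral RNA near DPP4, had log2 fold changes of -0.58 ± 0.14 and -0.46 ± 0.13, and C1orf116, near PIGR and itself on the androgen-induced list, -0.48 ± 0.08 and -0.49 ± 0.07. SLC4A10, a bicarbonate transporter next to DPP4, rose under ARN-509 by 1.22 ± 0.26 (adjusted p = 0.000528). The count of 3 lower under ARN-509 became 5 without vehicle 10 and 6 with GC and length trends removed. Only 1 neighbour of LUZP2 and 2 of PIGR were tested, so those loci were little covered.

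Among tested markers of other cell types, the following passed the threshold beside EGFL7. KRT14, a keratin of basal epithelium, fell from 5.44 ± 2.599 CPM to 0.95 and 0.61 CPM on average (log2 -2.55 ± 0.31 and -3.12 ± 0.31), while ITGB4 of the same list rose by 0.65 ± 0.14 and 0.51 ± 0.14. Among fibroblast genes, FBN1 was lower under both drugs (-1.09 ± 0.26 and -0.73 ± 0.24) and PDGFRA under ARN-509 (-1.91 ± 0.50, adjusted p = 0.00367), as was ACTA2 (-0.33 ± 0.12, adjusted p = 0.0412), while FN1 rose under ARN-509 by 0.47 ± 0.12. The medians of the summed fibroblast list were 39.3, 29.99 and 29.3 CPM in vehicle, enzalutamide and ARN-509 tumors, and those of the basal list 10.8, 7.33 and 6.77 CPM. Their part in the loss of the members was not tested.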

How the data were processed

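Whole-number read counts of 23368 genes in 44 tumors were deposited as a single table, without normalization. The tools in the submitters' processing notes are HTSeq 0.6.1, Picard 1.77, TopHat2 2.1.0 and bcl2fastq 1.8.4, with hg19 as build, and the labels' protocols name the TruSeq RNA v2 kit. How these tools were set, which annotation they used, and whether strand was used or host reads were removed is not given in the sources used here, so reads of overlapping or antisense genes cannot be told apart. Columns were matched to tumors by the sample descriptions, with 0 columns unmatched. No libraries of an arm were identical (lowest chi-square per degree of freedom 3.42).

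Counts of 43 libraries were fitted with edgeR 4.0.16 (R 4.3.3), with TMM scaling, filterByExpr by arm (13520 genes tested), a robust quasi-likelihood fit and arm as the only term. Adjusted p is Benjamini-Hochberg over tested genes at 0.05, the SE comes from the log2 fold change and its F statistic, and CPM refers to TMM-scaled totals. FAM189A2 missed the filter and was read from an unfiltered fit. On simulated counts with genes changed in 1 arm, the test between the drugs recovered 83% to 84% of genes changed 1.5-fold and 98% to 100% of those changed 2-fold. Of its calls, 3.72% to 6.60% were false. The changed genes averaged over 1 CPM, and the simulation held no GC trend. These shares need not hold for the members at their levels in treated tumors. The number of counts limits the precision of low genes.

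Correlations used log2 CPM with a prior count of 2 and two-sided permutation tests with 100000 resamples (exact below 10 values), adjusted within each family. A gene was taken as split where its widest gap was at least 2-fold with at least 3 tumors on each side, a rule set after the data were seen. Alternatives were other scalings, filters, DESeq2 1.42.0, a replicate block, GC and length trends removed, only the 2 arms compared, enzalutamide 4 included, and each library left out in turn. Fits without vehicle 8 and 10, correlations with GC trends removed or by Spearman and the relations over 10 vehicle tumors were added after the data were seen.

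The members and gene lists were chosen with earlier results of these data known. Genes named are the 6 members, the 3 genes nearest to each in vehicle tumors, tested flanking genes, up to 4 genes of each list with the smallest p and androgen reference genes; some of these are not reported here. STEAP1, EPN2 and VWF were named after their values were seen. Symbols of all 6 members matched RefSeq (GRCh38.p14), from which promoters and gene order came; lengths came from GENCODE.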

Additional observations from a re-analysis of the deposited data

Results flagged for a closer look

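LUZP2 was flagged because its 2 drug effects differed by a test of the difference itself, with a log2 value of -0.97 for enzalutamide minus ARN-509 (edgeR adjusted p = 0.0381). In the same values, LUZP2 was below the median of the ARN-509 arm in each of the 13 enzalutamide tumors, which is no separate support. Between the drugs 26.8% of all tested genes passed. The LUZP2 call was lost with GC and length trends removed (-0.72, edgeR adjusted p = 0.190).

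The other flagged values come from enzalutamide 4, which was left out of the main fit and held 80142 counts. Its log2 values had a correlation of 0.402 with its arm across genes, against 0.891 or more for every other library. DPP4 had 25 counts there, or 312 CPM of the library total (exact Poisson 95% interval 202 to 460), above the highest vehicle tumor at 116 CPM and the highest other enzalutamide tumor at 3.36 CPM. FAM189A2 had 6 counts, or 74.9 CPM (27.5 to 163), against at most 26.0 CPM in vehicle tumors. LUZP2, TESC, PIGR and RHOJ had 0 counts, for which the upper exact Poisson 95% limit is 46.0 CPM. The intervals cover counting error only.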

How the results depend on the processing

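Each of the 560 alternative values of a member against vehicle kept its direction and moved by less than 1 SD of the vehicle tumors, although that SD is wide for PIGR, whose log2 fold changes went to -0.81 and -1.20 in DESeq2 and to -1.28 and -1.70 with the replicate block. Replicate numbers did not pair the tumors, since same-numbered tumors deviated together (r over 0.1) in 3 of 13, 6 of 15 and 4 of 13 pairs; with the replicate block 3290 genes passed between the drugs, LUZP2 kept -0.91 (adjusted p = 0.0264) and no other fitted member passed between the drugs. FAM189A2 missed the filter in that fit, and it passed in only 13 of the 43 fits that left out 1 library.

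The count of 3623 genes between the drugs became 789 with GC and length trends removed, where LUZP2 had -0.72, and LUZP2 had -0.97 without the filter; when 1 library was left out LUZP2 ran from -1.09 to -0.91. The 0 flanking genes higher under enzalutamide became 1 without the filter, with GC and length trends removed and without vehicle 8 and 10, and ran from 0 to 1 with single libraries left out. The 3 lower under ARN-509 became 6 with GC and length trends removed and ran from 3 to 5 with single libraries left out, and the 4 higher became 2 with only the 2 arms compared. Member pairs past the threshold went from 0 to 2 with GC and length trends removed. TESC and TRPM8 turned to r = -0.17 over the 10 tumors outside the 5 with least DPP4. The cause of these shifts was not tested. Of 2858 alternative values of other named genes, 25 lost and 8 gained a call. FAM189A2, at 0 to 35 counts in treated tumors, is limited by depth.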
